A study of Mus musculus with 2 samples.

Results

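The genes described here are the E2F transcription factor genes E2f1 to E2f8 and the retinoblastoma, or pocket protein, genes Rb1 and Rbl1, 10 of the 55487 records with a gene symbol. They were taken by symbol, with earlier results of these data known, and each of the 10 had 1 row in both files. RNA was sequenced from LPC-HRas cells, a mouse line labelled as hepatocellular carcinoma, after infection with lentivirus. One library came from cells carrying shETV4, a hairpin against Etv4, and 1 from cells carrying the control hairpin shRFP; there is 1 library per group, no p-value can be given, and an effect of lower Etv4 and any other effect of this hairpin or of a single culture cannot be told apart. Etv4 was at 16.2 TPM in the shETV4 library, against 73.2 TPM in the shRFP library. Of 7 hepatocyte markers none reached 1 TPM in either library, and Alb was listed at 0 in both, while 3 of 6 progenitor and biliary markers did, Spp1, Krt19 and Sox9 being at 476, 36.3 and 45.4 TPM with shETV4 and at 423, 27.5 and 28.0 TPM with shRFP. The other 3, Krt7, Epcam and Prom1, were at 0.04, 0.23 and 0.09 TPM with shETV4 and at 0.06, 0.16 and 0.03 TPM with shRFP. Of 5 leukocyte markers only Cd68 reached 1 TPM, at 1.98 TPM with shETV4 and 1.01 TPM with shRFP. None of 4 endothelial markers reached 1 TPM, while 3 of 5 stellate cell or fibroblast markers did, the list summing to 845 TPM with shETV4 and 627 TPM with shRFP.

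E2F proteins bind promoters of genes for DNA replication and cell division, most of them as dimers with a DP protein. Pocket proteins bind E2F dimers in resting cells and hold these promoters silent, until cyclin-dependent kinases phosphorylate them and release the E2F factor. In mouse liver the atypical members E2F7 and E2F8 are known for their part in making hepatocytes polyploid, and loss of pocket protein function is a known lesion of liver tumours.

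E2F genes are themselves known to be controlled by E2F factors, so the stretches around start sites were searched for E2F motifs. The letters TTTGGCGC, TTTCCCGC, TTTCGCGC and TTTGCCGC were looked for on both strands in windows from 250 bases before to 50 bases after RefSeq start sites of GRCm38.p6. Windows were at hand for 7 of the 10 genes. A match was found in at least 1 window of 4 of the 7, E2f2, E2f3, E2f7 and Rbl1, while 4.99% of the 9553 evaluated genes with a window had one. Of all 32851 single windows 2.26% held a match. The matches are shown here with up to 11 bases on each side and the motif in capitals, on the strand of the gene; where the capitals begin with GCGGGAAA the motif lies on the opposite strand.
E2f2, chr4:136172302-136172323, plus strand: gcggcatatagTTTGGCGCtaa
E2f3, chr13:29986056-29986085, minus strand: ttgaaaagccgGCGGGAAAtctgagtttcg
E2f7, chr10:110745230-110745259, plus strand: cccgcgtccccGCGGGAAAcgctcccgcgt
Rbl1, chr2:157204534-157204563, minus strand: aagaaggcgatTTTCGCGCgctttgtcgcg
The first capital lies at base 40 after the start in E2f2, where the RefSeq start is 120 bases upstream of the nearest protein-coding start of GENCODE M21, and at -11, -198 and -18 from the start in E2f3, E2f7 and Rbl1. The E2f1 window is built on a start 294 bases downstream of the nearest protein-coding start of GENCODE M21 and holds none of the motifs, and neither do those of E2f6 and E2f8 or the further windows of E2f2 and E2f3. None of the windows of these 7 genes holds CCGGAAGT, a motif of ETS factors such as Etv4, on either strand; 9.59% of the evaluated genes with a window have one that does. These matches describe letters, not binding.

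The 250 bases before the start are given for E2f3 and Rbl1, which carry their motif close to the start; E2f3 is an activator gene and Rbl1 a repressor gene, and both were at lower TPM with shETV4.
E2f3, chr13:29986064-29986313, minus strand: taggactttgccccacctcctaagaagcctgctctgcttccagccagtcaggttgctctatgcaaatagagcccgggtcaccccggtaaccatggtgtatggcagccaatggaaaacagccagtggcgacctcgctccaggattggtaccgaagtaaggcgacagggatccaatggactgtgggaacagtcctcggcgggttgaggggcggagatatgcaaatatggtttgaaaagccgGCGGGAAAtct
Rbl1, chr2:157204535-157204784, minus strand: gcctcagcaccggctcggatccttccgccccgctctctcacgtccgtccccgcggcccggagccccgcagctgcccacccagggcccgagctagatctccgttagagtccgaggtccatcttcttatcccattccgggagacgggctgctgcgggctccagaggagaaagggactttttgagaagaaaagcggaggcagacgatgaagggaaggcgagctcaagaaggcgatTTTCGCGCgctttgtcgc

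Values here are TPM, transcript abundances scaled so that each library has the same total, which divide by transcript length as well. Levels of different genes can thus be set side by side, but with limits. TPM does not remove effects of base composition. It also rests on the transcript annotation used, which is not stated, and some genes share exonic bases with others. The difference of a gene is its log2(TPM + 1) with shETV4 less that with shRFP, a scale that understates differences of genes at low level. A gene was evaluated if either library had it at 1 TPM or above, and called higher or lower from 2-fold on that scale. All 10 genes were evaluated, 9 of them at 1 TPM or more in both libraries, and none was called higher or lower. The share called higher over all 12968 evaluated genes was 3.39%, and the share called lower 7.06%. Among the 10 differences 4 lay above 0 and 6 below, with a median of -0.35, against -0.10 over all evaluated genes. Over all 12968 evaluated genes 5395 lay above 0 and 7560 below. These shares and counts are also the background for the gene lists given further on. With no replicate, neither the differences nor the order of levels can be set against a spread.

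E2f4 was the most abundant of the 10 in both libraries and Rb1 the least. In the shETV4 library the order was E2f4, E2f1, E2f6, E2f8, E2f7, Rbl1, E2f3, E2f2, E2f5 and Rb1. In the shRFP library E2f4, E2f1, E2f6, E2f8 and E2f7 held the same first 5 places, followed by E2f3, Rbl1, E2f5, E2f2 and Rb1. E2f2 thus stood above E2f5 with shETV4 and below it with shRFP. The 8 E2F genes summed to 199.97 TPM with shETV4 and 222.8 TPM with shRFP. Without E2f4 the sums were 125.9 TPM with shETV4 and 124.3 TPM with shRFP.

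**Figure D1:**
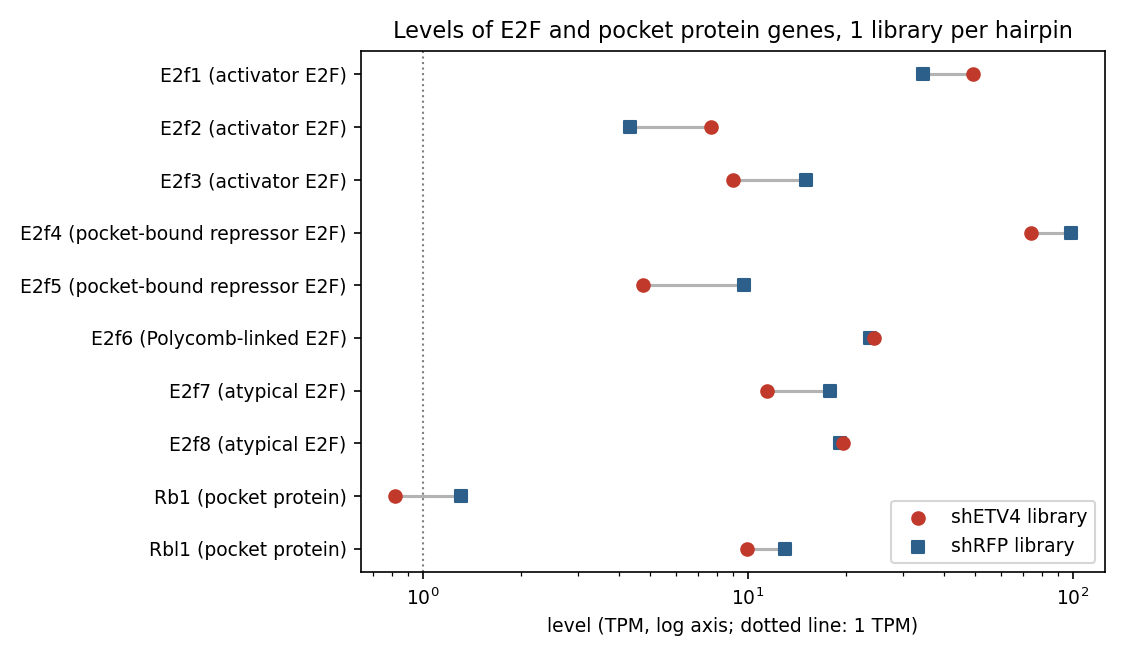
Level of each gene in TPM on a log axis, with circles for the shETV4 library and squares for the shRFP library, 1 library each. E2f1 and E2f2 have their circle to the right of the square, E2f6 and E2f8 have both together, and the other 6 have the circle to the left; Rb1 lies near 1 TPM in both.

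Among the activators, whose products drive entry into S phase, E2f1 and E2f2 were at higher TPM and E2f3 at lower TPM in the shETV4 library, all within 2-fold. E2f1 (ENSMUSG00000027490, GRCm38 chromosome 2, 154559407 to 154569892, minus strand), also known for inducing cell death genes, was at 49.2 TPM with shETV4 and 34.4 TPM with shRFP. The ratio of its TPM was 1.43 and its difference 0.50. E2f2 (ENSMUSG00000018983, chromosome 4, 136172394 to 136196057, plus strand) was at 7.67 TPM with shETV4 and 4.34 TPM with shRFP, a ratio of 1.77 and a difference of 0.70. That was the highest difference of the 10 genes, at percentile 93.5 of the differences of all evaluated genes counted from the lowest. E2f3 (ENSMUSG00000016477, chromosome 13, 29906575 to 29986063, minus strand), whose locus is known to encode an activating and a shorter repressive form that a gene-level value does not separate, was at 8.99 TPM with shETV4 and 15.0 TPM with shRFP. It was 1.67-fold lower, with a difference of -0.68. The balance between activator genes therefore differed between the libraries, E2f1 being 5.47 times as abundant as E2f3 with shETV4 and 2.29 times with shRFP. The 3 activator genes summed to 65.8 TPM with shETV4 and 53.8 TPM with shRFP.

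Both genes of the repressors that act through pocket proteins were at lower TPM with shETV4. E2f4 (ENSMUSG00000014859, chromosome 8, 105297663 to 105305370, plus strand), the main E2F of resting cells, was at 74.1 TPM with shETV4 and 98.5 TPM with shRFP, 1.33-fold lower, with a difference of -0.41. It made up 35.2% of the summed TPM of the 10 genes with shETV4 and 41.5% with shRFP. E2f5 (ENSMUSG00000027552, chromosome 3, 14578641 to 14606309, plus strand), its close relative, was at 4.76 TPM with shETV4 and 9.71 TPM with shRFP. This was the lowest difference of the 10, at -0.89 and percentile 9.32 of all evaluated genes, and the plain ratio of its TPM, 2.04-fold lower, was the only one of the 10 past 2-fold. With a pseudocount of 0.1 in place of 1, E2f5 was at -1.01 and would be called lower. The genes nearest to E2f5 in both levels, by Euclidean distance over log2(TPM + 1) in the 2 libraries among 11560 evaluated protein-coding genes, were Simc1, Vezt and Zfyve9, at distances of 0.02, 0.02 and 0.03.

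E2f1 was at 0.66 of the level of E2f4 with shETV4 and at 0.35 with shRFP. The most abundant activator and the most abundant repressor gene thus stood closer to each other in the shETV4 library, since E2f1 was higher there and E2f4 lower.

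E2f6 (ENSMUSG00000057469, chromosome 12, 16810963 to 16839742, plus strand) encodes a repressor that does not bind pocket proteins and works with a Polycomb complex. It was at 24.3 TPM with shETV4 and 23.7 TPM with shRFP, a difference of 0.04. E2f8 (ENSMUSG00000046179, chromosome 7, 48866429 to 48881596, minus strand), an atypical repressor that binds DNA without a DP partner, was at 19.5 TPM with shETV4 and 19.2 TPM with shRFP, a difference of 0.02. These were the 2 smallest differences of the 10. The other atypical gene, E2f7 (ENSMUSG00000020185, chromosome 10, 110745439 to 110787384, plus strand), was at 11.4 TPM with shETV4 and 17.9 TPM with shRFP, 1.56-fold lower, with a difference of -0.60. The E2f7 level was 0.59 of that of E2f8 with shETV4 and 0.93 with shRFP. The products of both genes are known to repress E2F1 and its target genes. Exonic bases shared with other genes made up 11.2% for E2f8 and 0.95% for E2f7.

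Both pocket protein genes were at lower TPM with shETV4, within 2-fold, and Rb1 was near the 1 TPM minimum in both libraries. Rb1 (ENSMUSG00000022105, chromosome 14, 73183673 to 73325822, minus strand), which encodes the retinoblastoma protein, was at 0.82 TPM with shETV4 and 1.31 TPM with shRFP, a difference of -0.34. It passed the 1 TPM minimum through the shRFP library alone, and its level lay at percentile 4.18 of the levels of all evaluated genes with shETV4 and at 7.22 with shRFP. Other genes' exons overlap 14.9% of its exonic bases. Rbl1 (ENSMUSG00000027641, chromosome 2, 157145893 to 157204534, minus strand), which encodes p107, was at 9.91 TPM with shETV4 and 13.0 TPM with shRFP, 1.31-fold lower, with a difference of -0.36. Its level was 12.1 times that of Rb1 with shETV4 and 9.95 times with shRFP. Rbl2, which encodes the remaining pocket protein, was at 13.3 TPM with shETV4 and 14.2 TPM with shRFP, so Rb1 was the lowest of the 3 in both libraries.

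The differences of the whole table followed base composition, and those of the 10 genes are therefore given again with it taken out. Across 12947 evaluated genes difference and transcript GC content had a rank correlation of 0.52; genes are not replicates. With the running median of the difference over GC content subtracted, none of the 10 was past 2-fold, against 4% of all genes called higher and 2.32% called lower on that scale. E2f1 and E2f2 stayed above 0 at 0.35 and 0.53, and E2f6 and E2f8 at 0.14 and 0.20. E2f3, E2f4, E2f5 and E2f7 stayed below 0 within a narrow range, at -0.52, -0.55, -0.54 and -0.59. Rb1 and Rbl1, whose transcripts have GC contents of 41.8% and 43.2%, changed sign to 0.39 and 0.23. The running median near the GC content of Rb1 was -0.73. The difference of Rb1 was -0.34 with a pseudocount of 1 and -0.62 with a pseudocount of 0.1. The difference of Rb1 before adjustment thus depended on the pseudocount. No adjusted value was computed with a pseudocount of 0.1, so the part of the pseudocount in the adjusted value was not tested. After adjustment 6 of the 10 thus lay above 0 and 4 below, and the median was 0.17. Base composition moved with these differences, and its part in them was not tested beyond this adjustment.

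**Figure D2:**
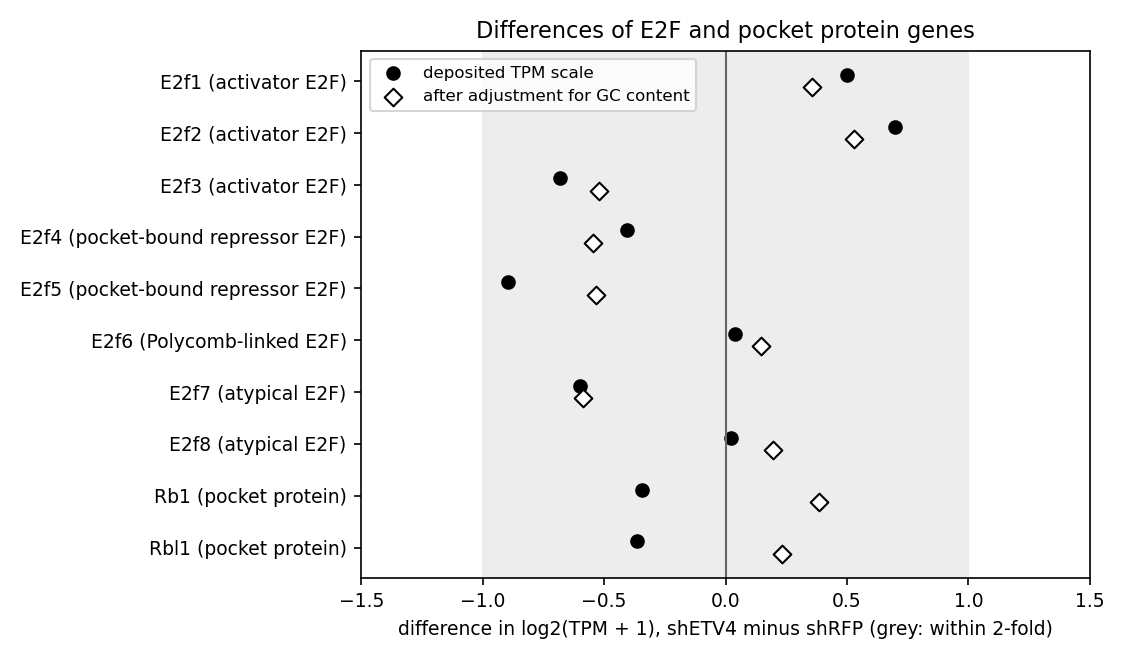
Difference of each gene in log2(TPM + 1), shETV4 minus shRFP, on the deposited scale (filled circles) and after adjustment for GC content (open diamonds), with the grey band marking less than 2-fold. All 20 points lie inside the band, and the diamonds of Rb1 and Rbl1 lie on the other side of 0 from their circles.

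The DP partners were both at lower TPM with shETV4. Tfdp1, the main dimerization partner, was at 199.7 TPM with shETV4 and 234.2 TPM with shRFP, close to the sum of all 8 E2F genes in each library. Tfdp2 was at 8.34 TPM with shETV4 and 13.8 TPM with shRFP, a difference of -0.66 that came to -0.20 after GC adjustment. The MuvB core joins E2f4 and some of the pocket proteins in the DREAM repressor. Among 8 genes of this core and its partners, 1 was called lower and none higher. This was Lin9, a core subunit, at 5.53 TPM with shETV4 and 12.7 TPM with shRFP, a difference of -1.06 that came to -0.32 after GC adjustment. Lin37, another core subunit, had the highest difference of these at 0.23. Mybl2 and Foxm1, the activators that use the same core later in the cell cycle, were at 51.6 and 57.4 TPM with shETV4 and at 63.4 and 69.0 TPM with shRFP.

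Among 11 genes of cyclins and kinases upstream of pocket proteins, 10 were evaluated, 1 was called higher and 2 lower, with a median difference of -0.08. The gene called higher was Ccnd3, a D-type cyclin, at 304.1 TPM with shETV4 and 135.5 TPM with shRFP. The genes called lower were Ccne2, an E-type cyclin known as an E2F target, at 4.32 TPM with shETV4 and 11.5 TPM with shRFP, and Ccnc, the partner of CDK3 and CDK8, at 3.23 TPM with shETV4 and 8.55 TPM with shRFP. After GC adjustment these 3 were at 0.98, -0.56 and -0.40, inside 2-fold. Among 7 kinase inhibitor genes 6 lay above 0, 1 was called higher and the median was 0.34. Cdkn1a was at 11.9 TPM with shETV4 and 2.25 TPM with shRFP, a difference of 1.99, and of 1.91 after GC adjustment. Cdkn1b had the lowest difference of these at -0.34, which reversed to 0.25 after GC adjustment, the list's median then being 0.23. Cdkn2a, which encodes an INK4 inhibitor and the ARF protein, was at 1602 TPM with shETV4 and 1236 TPM with shRFP, the highest level of any gene on these lists. Its gene-level value does not separate these products.

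Of 11 corepressor genes that pocket proteins are known to recruit, 1 was called lower, Arid4b, at 1.90 TPM with shETV4 and 4.89 TPM with shRFP (-0.31 after GC adjustment), and 10 lay below 0, with a median of -0.49. After GC adjustment that median was -0.11, with Hdac1 and Hdac2, the histone deacetylase genes of the list, above 0 at 0.08 and 0.06. Suv39h1, a histone methyltransferase gene, was the one above 0 on the deposited scale, at 176.0 TPM with shETV4 and 148.8 TPM with shRFP. Of 11 genes of the Polycomb complex that holds E2F6, 10 lay below 0 and the median was -0.36, 1 being called higher and 2 lower. The median was -0.15 after GC adjustment, with Pcgf6 and Wdr5 turning to 0.02 and 0.01. Over all evaluated genes, 7560 of 12968 lay below 0 on the deposited scale. Ring1, a ubiquitin ligase gene of the complex, was at 22.5 TPM with shETV4 and 9.17 TPM with shRFP, a difference of 1.21, and of 1.08 after GC adjustment. Mga, the DNA-binding scaffold, was at 14.4 TPM with shETV4 and 30.6 TPM with shRFP, and Cbx3, a heterochromatin protein gene, was at 61.7 TPM with shETV4 and 126.6 TPM with shRFP. Both came inside 2-fold after GC adjustment, at -0.43 and -0.27. Of 5 germline genes that E2F6 is known to silence in mouse, 4 were listed at 0 in both libraries (Smc1b, Slc25a31, Tuba3a and Tuba3b), and Stag3 was at 1.22 TPM with shETV4 and 0.87 TPM with shRFP.

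**Figure D3:**
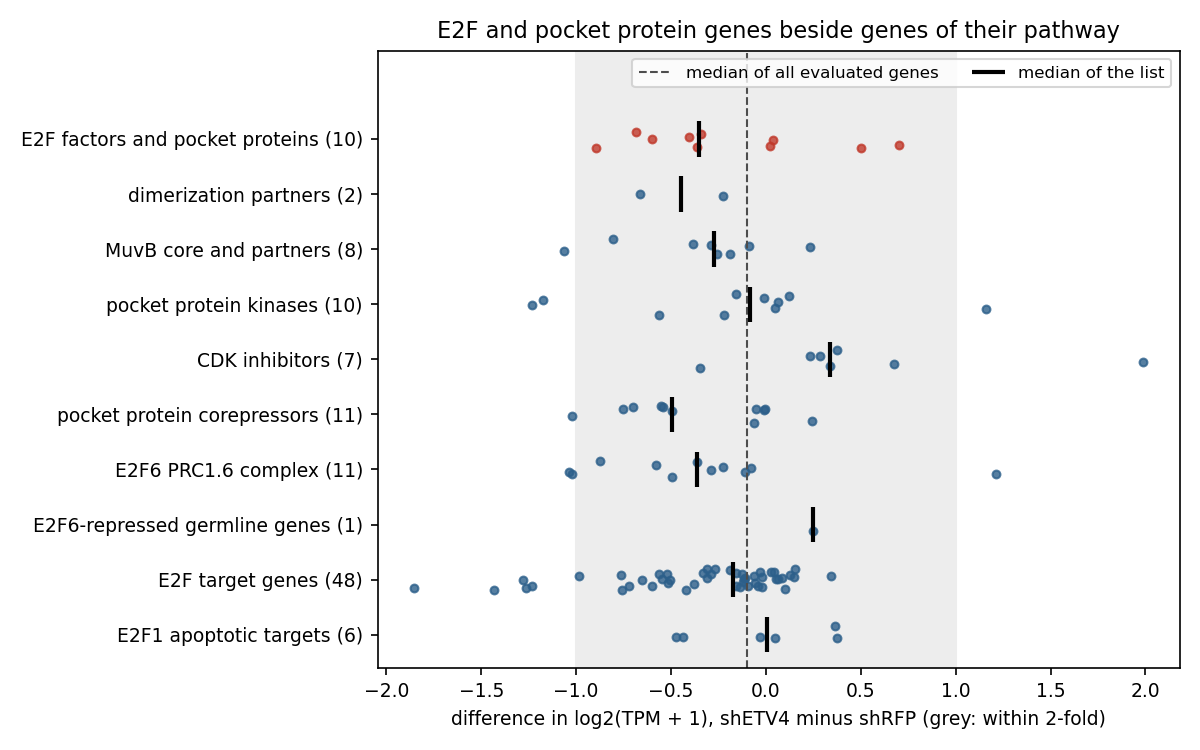
Differences in log2(TPM + 1), shETV4 minus shRFP, of the evaluated genes of each list, 1 point per gene and the number evaluated in parentheses; black bars are list medians, the dashed line is the median of all evaluated genes and the grey band marks less than 2-fold. The 10 E2F and pocket protein genes in the top row all lie inside the band, and the kinase inhibitors have the highest median of the lists with more than 1 evaluated gene, 0.34.

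Genes that E2F factors are known to activate lay within 2-fold for 43 of 48 genes. All 48 on the list were evaluated, none was called higher and 5 were called lower, with 38 below 0 and a median of -0.17. Over all 12968 evaluated genes 7.06% were called lower, 7560 lay below 0 and the median was -0.10. The lowest was Hells, a chromatin remodeller gene of S phase, at 4.27 TPM with shETV4 and 18.1 TPM with shRFP, 4.23-fold lower. Fbxo5, the inhibitor of the anaphase-promoting complex, was at 8.07 TPM with shETV4 and 23.5 TPM with shRFP. Atad2 was at 9.98 TPM with shETV4 and 25.7 TPM with shRFP, Pola1, the catalytic subunit of DNA polymerase alpha, was at 5.95 TPM with shETV4 and 15.7 TPM with shRFP, and Ccne2 is given above. The highest was Ung, a uracil glycosylase gene, at 29.6 TPM with shETV4 and 23.1 TPM with shRFP. The replicative helicase genes Mcm2 to Mcm7 all lay below 0 but within 2-fold. The lowest of them was Mcm4, at 68.5 TPM with shETV4 and 98.9 TPM with shRFP. After GC adjustment Mcm2, Mcm3, Mcm4 and Mcm5 were at -0.165, -0.19, -0.14 and -0.15. Mcm6 was then above 0 at 0.09, and Mcm7 was at -0.002. Ccne1, an E-type cyclin and a known E2F1 target, was at 48.3 TPM with shETV4 and 46.1 TPM with shRFP.

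The targets that were called lower were those poor in GC. All 5 were among the 12 targets with a transcript GC content under 45%, and none was among the other 36. Over all evaluated genes 23.0% of those under 45% GC were called lower and 3.33% of those at or over it. The rank correlation of difference and GC content was 0.74 over the 48 targets and 0.43 over the 10 E2F and pocket protein genes; the points share both libraries. After adjustment Hells alone was called lower, at -1.10, and the median of the targets was -0.06. Fbxo5, Ccne2, Pola1 and Atad2 stayed below 0 after adjustment, at -0.95, -0.56, -0.53 and -0.49. Of the 38 targets with a RefSeq window 19 held at least 1 of the 4 E2F motifs, against 4.99% of 9553 evaluated genes with a window. The median difference was -0.12 for the 19 targets with a motif and -0.27 for the 19 without, and after GC adjustment -0.01 with a motif and 0.03 without.

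**Figure D4:**
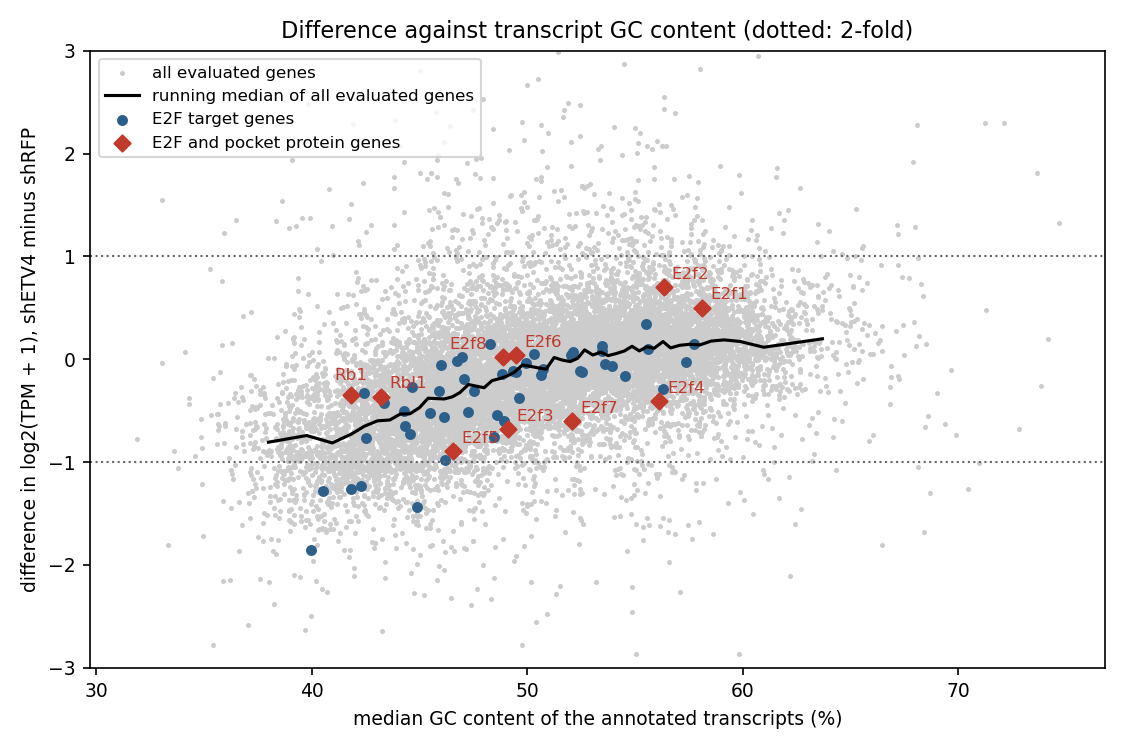
Difference in log2(TPM + 1), shETV4 minus shRFP, against the median GC content of a gene's annotated transcripts in percent, for all evaluated genes (grey), E2F target genes (circles) and E2F and pocket protein genes (named diamonds); the black line is the running median and 74 grey genes lie beyond the vertical limits. E2f3, E2f4, E2f5 and E2f7 lie below the line and the other 6 named genes above it, while the 5 circles below -1 all lie under 45% GC.

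Of 9 genes through which E2F1 is known to promote cell death, 6 were evaluated, none was called, and the median was 0.01. Cdkn2a, described above, had the highest difference at 0.37. Apaf1, the apoptosome scaffold gene, had the lowest at -0.47, with 9.59 TPM with shETV4 and 13.7 TPM with shRFP. After GC adjustment Cdkn2a was at 0.19, Apaf1 at -0.09 and the median of the list at 0.09. Trp73 and Pmaip1 were listed at 0 in both libraries. E2f1 itself was at the higher level in the shETV4 library, as given above.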

How the data were processed

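Total RNA of 2 libraries, 1 with shETV4 and 1 with shRFP, was made into Illumina TruSeq libraries, per the labels' protocols. Each deposited file gives 1 TPM value per gene, computed by the authors, the unit being read from the totals of 999870.3 for shETV4 and 999999.77 for shRFP. HISAT2, RSEM and the build GRCm38.p4 are named without roles in the submitters' processing notes; the annotation, strand setting and any filter used are not stated there. The value columns are named shETV4_2 and shRFP_2, and whether the suffix marks a replicate or a run is not known here. TPM keeps no record of depth, so counting error is unknown.

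The 153 records without a symbol stayed out. Differences used a pseudocount of 1 over the 12968 genes that reached 1 TPM with either hairpin, and calls a 2-fold threshold. Position, GC content, transcript length and shared exonic bases came from GENCODE M21 on GRCm38, which matched 99.4% of named records, and promoter windows from RefSeq on GRCm38.p6. All windows were searched for motifs; positions and sequences of matches are given for members' windows whose start lay within 150 bases of a GENCODE protein-coding start, a limit set after the windows were seen. GC adjustment subtracted the median difference of 50 bins of equal size, interpolated. Genes were named by a rule: all members, both DP genes, Rbl2, Etv4, and from 9 lists of 105 genes (7 of them in 2 lists) the called genes and the extremes; further genes were named after their values were seen. A further gene was taken off the lists and is not reported here. Members and lists were chosen with earlier results of these data known. No library was left out, since each group has 1. Alternatives changed the pseudocount, minimum, scale, threshold, GC adjustment and summing of rows. The procedure was tested on simulated data built from genes well above 1 TPM, so the GC adjustment was not tested at levels such as that of Rb1. Computation was in Python 3.11.15 (pandas 2.3.3, numpy 2.4.6; rank correlations with scipy 1.17.1; plots with matplotlib 3.10.9).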

Additional observations from a re-analysis of the deposited data

How the results depend on the processing

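The 10 differences were recomputed under up to 8 alternatives, 79 values in all, of which 76 kept direction and side of the 2-fold threshold. E2f5 passed it at -1.01 with pseudocount 0.1, which made 1 member called lower. Rb1 and Rbl1 reversed to 0.39 and 0.23 with GC adjustment, which was computed with a pseudocount of 1 alone. The median of the members reversed to 0.17 with GC adjustment. With pseudocount 5 that median was -0.20. At a 1.5-fold threshold 1 member, E2f2, was called higher and 3, E2f3, E2f5 and E2f7, lower. E2F target genes called lower numbered 3 with pseudocount 5 (Atad2, Fbxo5 and Hells), 1 with GC adjustment and 1 at 3-fold (Hells in both), and 11 at 1.5-fold, against 5. Dividing out the log2 median ratio of -0.07 or the trimmed mean of -0.12 changed no call of a member or target. Beyond what the thresholds and pseudocounts do by construction, the cause was not tested. No paired analysis was possible because each group has 1 library. Without replicates or depth, no difference here can be separated from variation between cultures or from counting error, which bears most on Rb1, near 1 TPM.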

Other observations

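Over all evaluated genes with a RefSeq window, those holding at least 1 of the 4 E2F motifs numbered 477, of which 1.47% were called higher and 7.76% lower, against 2.17% and 6.35% of the 9076 without. Genes whose window holds the ETS motif CCGGAAGT were less often called in either direction. Called higher were 1 of 916 with it (0.109%) and 203 of 8637 without it (2.35%), and called lower 4.80% and 6.59%. The median difference was -0.12 with the motif and -0.10 without, and after GC adjustment -0.01 with it and -0.002 without. Levels of these genes were not compared, and what lies behind the fewer calls was not tested.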
